A study of Mus musculus with 20 samples.

Results

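Oxidative phosphorylation is carried out by protein complexes of the inner mitochondrial membrane, and the genes for their nuclear-encoded subunits are described here in primary mouse embryonic fibroblasts (MEFs) with and without the transcription factor E2F4. Members were chosen by symbol alone: genes whose symbol starts with Nduf (assembly factors named Ndufaf left out), Uqcr, Cox4 to Cox8 or Atp5, together with Sdha, Sdhb, Sdhc, Sdhd and Cycs. The array held 80 such genes among 12393 genes with a probe set assigned to 1 symbol. By symbol, 34 belonged to complex I, 4 to complex II, 8 to complex III, 16 to complex IV and 17 to complex V, and Cycs encodes cytochrome c.

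RNA came from fibroblasts grown from mouse embryos at 13.5 days post coitum, and each culture was measured on 1 Affymetrix array. The wild type group held 10 cultures from 3 embryos, with 3, 3 and 4 cultures each. The E2F4 null group held 10 cultures from 5 embryos, with 2 cultures each. No treatment, strain, litter, sex, passage or design of the null allele is given in the labels used here, and no agent or allele shared by both groups is named. The embryo was taken as the replicate, so n is 3 against 5, and cultures of 1 embryo were averaged first.

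The 2% trimmed mean of the signal was 500.2 on every array, and array medians ran from 134.8 to 145.6. Arrays of the same embryo correlated at 0.988 to 0.994, arrays of different embryos at 0.948 to 0.991, and all 20 arrays correlated best with another array of their own embryo. E2f4 itself gave embryo signals of 209.3, 211.6 and 221.5 in wild type and 156.7, 166.8, 155.6, 154.9 and 196.5 in the null, a difference of -0.35 (log2, SE 0.10, limma adjusted p = 0.363) with all null embryos below all wild type embryos. A probe set outside the removed part of the gene checks nothing, and the labels do not say which part that is. All 10 fibroblast markers passed the filter on low signal, with Col1a1 at 10292 to 13838 in the 8 embryos. Myod1, Myog and Ckm of muscle, Pecam1 and Cdh5 of endothelium, and Cdh1 and Epcam of epithelium did not exceed 47.79 in any embryo. Other markers of these types passed the filter: 3 of 10 for muscle, 2 of 6 for endothelium (Flt1 and Eng) and 2 of 5 for epithelium (Krt18 and Krt19). Of 8 macrophage markers 7 passed, and their list's summed signal ran from 1626 to 2480 in wild type and from 1281 to 4372 in the null.

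Electrons from NADH enter the respiratory chain at complex I (NADH dehydrogenase) and those from succinate at complex II (succinate dehydrogenase). They pass through ubiquinone to complex III (the cytochrome bc1 complex), through cytochrome c to complex IV (cytochrome c oxidase), and finally to oxygen. Complexes I, III and IV pump protons across the inner membrane, and complex V (ATP synthase) uses the gradient to make ATP. Mitochondrial DNA encodes core subunits of complexes I, III, IV and V, and the nucleus encodes all the other subunits. A search by symbol found no gene of mitochondrial DNA among the genes analysed here, so only the nuclear-encoded part is described. Probe sets that were unlisted or had several symbols were not searched, so whether the array measures such genes was not tested.

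E2F4 is a member of the E2F family that mostly represses cell cycle genes in resting cells, and many nuclear genes of the respiratory chain are known targets of the activators NRF1, GABP and YY1. The letters of these factors' motifs were therefore looked for on both strands of promoters from 250 bases before to 50 bases after the annotated start. The RefSeq table (GRCm38.p6) held 71 promoters for 66 of the 80 members and 21263 promoters in all. The E2F letters TTTGGCGC were present in 2 member promoters (2.82%, against 0.635% of all promoters), those of Cox5a and Cox8a. The other E2F letters searched, TTTCGCGC and TTTCCCGC, were in none of the 71 (0.451% and 1.41% of all promoters). Any of the 3 E2F motifs was found in 2.82% of member promoters and 2.41% of all promoters. Both promoters are shown because they are the ones of the family with these letters, which are in capitals in the strand of the gene (on Cox8a they lie on the opposite strand). The Cox5a window lies at chr9:57521087-57521130 on the plus strand with the motif 127 bases before the start, and the Cox8a window at chr19:7217653-7217696 on the minus strand with the motif 62 bases before it.
Cox5a: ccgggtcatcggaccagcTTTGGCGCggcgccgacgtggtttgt
Cox8a: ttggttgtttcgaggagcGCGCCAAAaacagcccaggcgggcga

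The NRF1 letters (GCGCA, any base, then GCGC) were in 15 of the 71 member promoters (21.1%, against 6.38% of all promoters), which belong to 14 genes. They include 6 of 15 complex V genes with a promoter in the table, 4 of 31 of complex I, 2 of 3 of complex II, 1 of 5 of complex III and 1 of 11 of complex IV. The YY1 letters AANATGGCG were in 9 member promoters (12.7% against 3.12%), and the ETS letters ACCGGAAG, which GABP binds, in 7 (9.86% against 3.01%). The CCAAT letters bound by NFY were in 28 (39.4% against 38.2%). A match describes the letters of a promoter and does not show that a factor binds there. The 4 windows below show NRF1 letters, in capitals, in genes of complexes II, IV and V whose values are given further on. They lie on the minus strand at chr5:115349093-115349138 and chr5:115349048-115349093 (Cox6a1, 162 and 117 bases before the start), chr2:10080433-10080467 (Atp5c1, 17 bases before it) and chr9:50603901-50603946 (Sdhd, 79 bases before it).
Cox6a1, upstream match: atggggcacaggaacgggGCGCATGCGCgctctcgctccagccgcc
Cox6a1, downstream match: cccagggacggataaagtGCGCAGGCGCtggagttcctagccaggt
Atp5c1: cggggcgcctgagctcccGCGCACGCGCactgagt
Sdhd: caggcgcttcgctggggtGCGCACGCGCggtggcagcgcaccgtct

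Nearly all members gave signals well above the filter on low values. Genes were tested if the signal of their brightest probe set, averaged over all arrays, was at least 83.2 (the 40th percentile of all genes), which left 7436 genes. Of the 80 members, 75 passed, and 72 of these had a mean signal of at least 1000. The median signal over the 75 was 2666. A probe set's signal also depends on its sequence, so signals of different genes are not compared in level.

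All 5 members under the filter were alternative subunits of complex IV known from particular tissues. Cox6a2, Cox7a1 and Cox8b, the heart and skeletal muscle forms, had mean signals of 58.0, 15.4 and 10.4. Cox4i2, the form known from lung and from low oxygen, averaged 30.6, and Cox6b2, the testis form, 69.3. The probe sets of their common partners were bright in all 8 embryos, with signals of 6463 to 7547 for Cox4i1, 9263 to 13591 for Cox6a1 and 7344 to 8300 for Cox6b1. Cox8c, a testis form, passed at 100.1 to 163.3. Cox7c, a common subunit, gave 63.62 to 98.75, so its probe set was close to the filter and its values have little precision.

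None of the 75 members differed between genotypes at an adjusted p under 0.05 (limma on embryo means with Benjamini-Hochberg adjustment over all 7436 genes), against a background of 0.0134% of genes called. That is 1 gene, Tmem223, which is no member and lay at -0.98 (log2, SE 0.10, adjusted p = 0.0348), and it was named after its values were seen. At an unadjusted p under 0.05 there were 10 members among 75, or 13.3%, against 8.73% of all genes tested. Of these, 5 were higher in the null (3.98% of all genes were) and 5 lower (4.75% of all genes were). In 2 members all null embryos were above all wild type embryos (background 2.95%), and in 3 all null embryos were below (background 3.71%). These shares are the same order as the background, and with so few genes no difference from it is read.

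By the brightest probe set of each gene, differences between genotypes were small. Null minus wild type ran from -0.24 to 0.22 on the log2 scale, with a median of -0.01, and 36 of the 75 members were above 0 (48.9% of all genes tested were). The median size of the difference was 0.06, against 0.09 for all genes and 0.08 for genes with a signal of at least 1000. Differences beyond 0.2 in size were seen in 4 members (5.33%), compared with 17.6% of all genes. The 95% confidence interval lay within 0.5 (log2, 1.41-fold) on both sides of 0 for 73 of the 75 members and for 78.1% of all genes. The exceptions were Ndufs5 and Atp5md. For 50 members the interval lay within 0.25 (1.19-fold), which was so for 24.9% of all genes. The interval shares were not taken for the genes with a signal of at least 1000 alone. These intervals rest on the spread between 8 embryos, and the signal was scaled to a common mean on every array, so a change shared by all genes cannot be seen. In RNA from whole cultures, fewer cells of a type and less RNA per cell cannot be told apart.

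**Figure D1:**
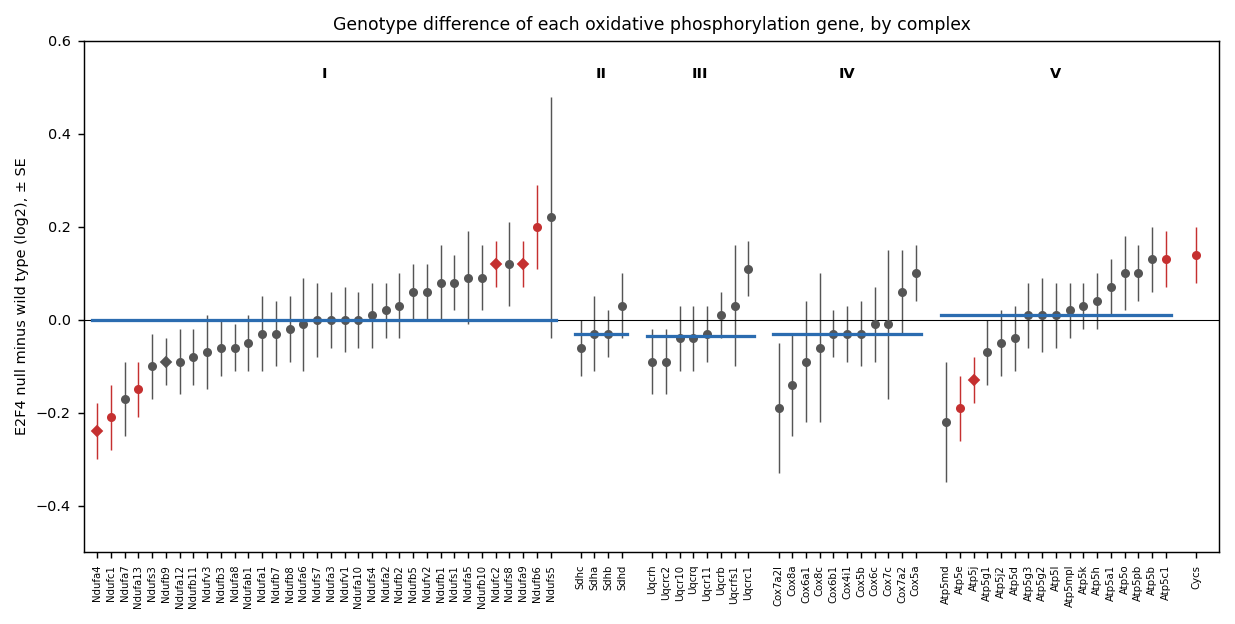
Each point is the E2F4 null minus wild type difference (log2, bars show SE) of 1 of the 75 measured genes, ordered by size within its complex. Red marks an unadjusted p under 0.05, diamonds mark groups that do not overlap, and blue lines are the medians of the complexes, which lie between -0.04 and 0.01.

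Complex I, the largest complex, was balanced between the genotypes. Of its 34 genes by symbol, 18 were above 0 and 16 below, and the median difference was 0.00. The subunits that carry the flavin and iron-sulphur centres showed differences of 0.00 for Ndufv1 (SE 0.07), 0.06 for Ndufv2 (SE 0.06) and 0.08 for Ndufs1 (SE 0.06). Ndufs7 and Ndufs8, which hold iron-sulphur centres near the ubiquinone site, were at 0.00 (SE 0.08) and 0.12 (SE 0.09). Ndufs3, a core subunit without such a centre, was at -0.10 (SE 0.07). None of these 6 core subunit genes had an unadjusted p under 0.05, and the genes of the Nduf group that did are not core subunits.

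Ndufa4 showed the smallest p of all members and lies on chromosome 6. It was first described as a complex I subunit, and its protein is now placed with complex IV. By its symbol it is counted here with complex I. Its signal was 2821, 2962 and 2846 in the 3 wild type embryos and 2347, 2329, 2534, 2567 and 2401 in the 5 null embryos. Every null embryo was below every wild type embryo, while single cultures overlapped (2461 to 3238 in wild type and 2109 to 2697 in the null). The group means were 2876 ± 75.4 (SD, n = 3) and 2436 ± 109 (SD, n = 5), a difference of -0.24 (log2, SE 0.06, 95% interval -0.37 to -0.11). The unadjusted p was 0.00212, and after adjustment over all genes the limma p was 0.303, short of the threshold.

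Ndufc1 and Ndufc2 encode small accessory subunits of the membrane arm and lay on opposite sides of 0. Ndufc2 gave 3904, 3888 and 3857 in wild type and 4225, 4065, 4341, 4283 and 4206 in the null, with all null embryos higher. Its difference was 0.12 (log2, SE 0.05, 95% interval 0.02 to 0.22, limma adjusted p = 0.465), and its second probe set, at 0.23, also had all null embryos above wild type. Ndufc1 gave 2801, 2762 and 2366 in wild type and 2209, 2415, 2395, 2127 and 2284 in the null. The third wild type embryo lay inside the null range, so these groups overlapped, and the difference was -0.21 (log2, SE 0.07, limma adjusted p = 0.459). The second Ndufc1 probe set was at -0.16.

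Further accessory subunits of complex I had unadjusted p under 0.05. Ndufa9, which sits at the junction of the matrix and membrane arms, gave 2171, 2180 and 2074 in wild type and 2293, 2214, 2422, 2361 and 2385 in the null, all null embryos being higher, with a difference of 0.12 (log2, SE 0.05, limma adjusted p = 0.546). Ndufa13, also known as GRIM-19, gave 3096, 3304 and 3004 against 2755, 2639, 2865, 3034 and 2817. Null embryo 4 was inside the wild type range, and the difference was -0.15 (log2, SE 0.06, limma adjusted p = 0.522). Ndufb6 was at 0.20 (log2, SE 0.09, limma adjusted p = 0.568) by its brightest probe set and at 0.01 by the other one. Ndufb9 gave 3377, 3291 and 3282 against 3021, 3036, 3264, 3241 and 3028, so that the groups did not overlap although the difference of -0.09 (SE 0.05) had an unadjusted p of 0.122. By its second probe set the difference was also -0.09, and the groups overlapped.

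Ndufs5, an accessory subunit of complex I, varied most between embryos of 1 genotype. Its probe set gave 628.7, 1568 and 1043 in wild type and 1067, 1622, 1031, 1167 and 1091 in the null. The second embryo of each genotype was the highest of its group and the first wild type embryo the lowest. The difference between genotypes of 0.22 had an SE of 0.26 (log2, limma adjusted p = 0.849, 95% interval -0.38 to 0.81), and it was -0.12 without wild type embryo 1. This probe set may not measure Ndufs5 alone, since the accession behind it belongs in RefSeq to the pseudogene Ndufs5-ps on chromosome 16, while Ndufs5 lies on chromosome 4. A probe set assigned to both symbols gave 1557, 1965 and 1692 in wild type and 1554, 2035, 1753, 1749 and 1577 in the null, again with the second embryo of each genotype highest.

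**Figure D2:**
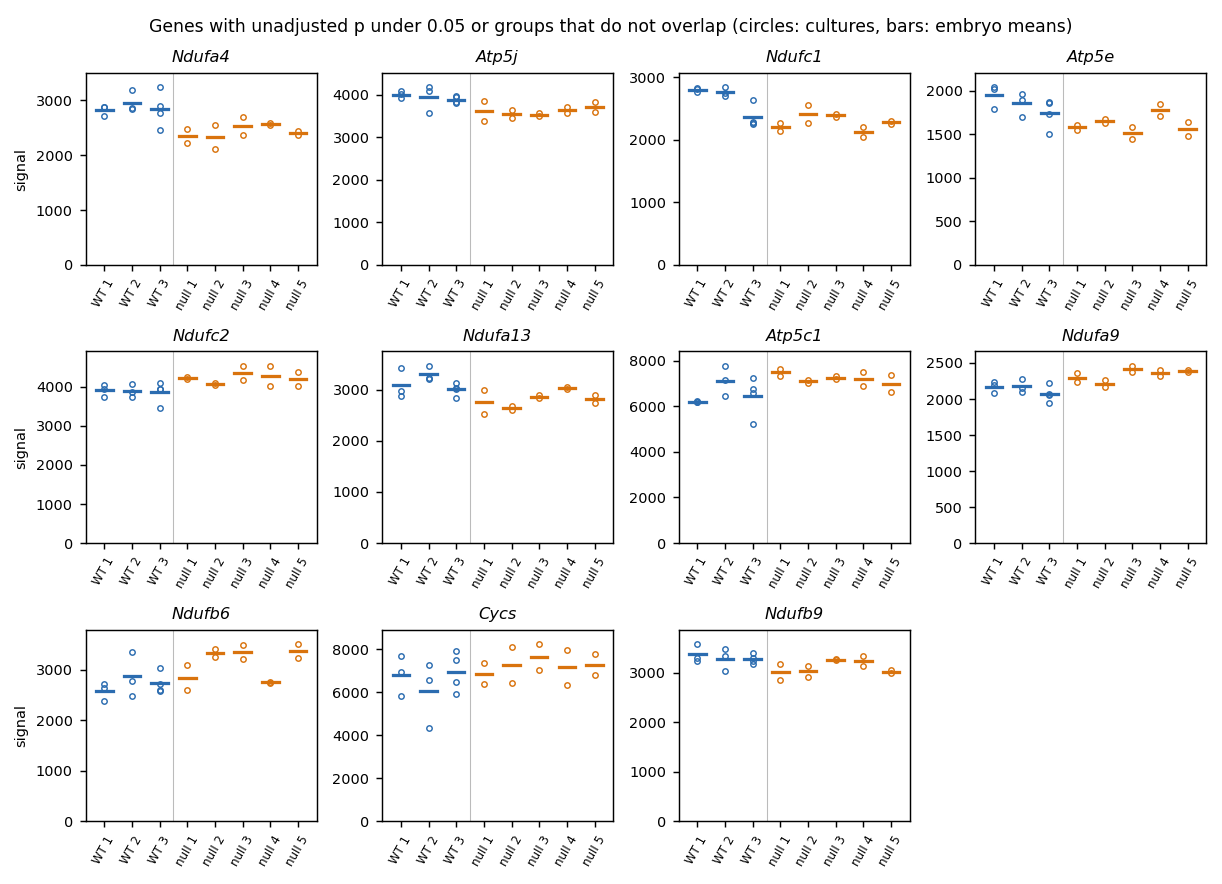
Signal (linear scale from 0) in each culture (circles) and embryo (bars, means of cultures) for the 11 genes with an unadjusted p under 0.05 or with groups that do not overlap; wild type is blue and E2F4 null orange. Ndufa4, Atp5j and Ndufb9 have all null bars below wild type, and Ndufc2 and Ndufa9 have all null bars above it.

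Complex II has no subunit encoded by mitochondrial DNA, and all 4 of its subunit genes were measured. The difference was -0.03 (SE 0.08) for Sdha, which carries the flavin, and -0.03 (SE 0.05) for Sdhb, which holds the iron-sulphur centres. The membrane anchors Sdhc and Sdhd were at -0.06 (SE 0.06) and 0.03 (SE 0.07) by their brightest probe sets. Their second probe sets gave -0.26 for Sdhc (mean signal 844.1, overlapping groups) and 0.37 for Sdhd (mean signal 232.2). Sdha was 2220, 2251 and 2296 in wild type and 2252, 1905, 2225, 2373 and 2355 in the null. The second null embryo was thus low while the other null embryos spanned the wild type range, and leaving it out turned the Sdha difference to 0.03.

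In complex III, 3 of 8 genes were above 0 and 5 below, with a median difference of -0.04, or 0.02 without wild type embryo 2. Uqcrc1, a core protein of the matrix side, gave 2989, 3412 and 3111 in wild type and 3500, 3331, 3310, 3528 and 3363 in the null, a difference of 0.11 (log2, SE 0.06, limma adjusted p = 0.661). Its partner Uqcrc2 was at -0.09 (SE 0.07), and the hinge protein gene Uqcrh also at -0.09 (SE 0.07). The second Uqcrc2 probe set was at -0.14 with all null embryos below wild type. Uqcrfs1, which encodes the Rieske iron-sulphur protein, gave 1505, 2023 and 1796 in wild type and 1773, 2090, 1446, 1894 and 1850 in the null. Embryos of both genotypes ranged widely for Uqcrfs1, 1.34-fold in wild type and 1.44-fold in the null, and the difference of 0.03 had an SE of 0.13.

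Complex IV genes, taken by symbol, had 2 differences above 0 and 9 below among the 11 measured, with a median of -0.03. None of these 11 had an unadjusted p under 0.05. Ndufa4, whose protein is now placed with complex IV, is not among them and was at -0.24 (unadjusted limma p = 0.00212). Cox5a, one of the genes with E2F letters in the promoter shown above, gave 7138, 8383 and 7114 in wild type and 8224, 8112, 7975, 7976 and 8147 in the null. Wild type embryo 2 was above all null embryos and the other wild type embryos below them, and the difference was 0.10 (log2, SE 0.06, limma adjusted p = 0.684). Cox8a, the other such gene, gave 2548, 3283 and 2354 against 2619, 2384, 2485, 2542 and 2256, a difference of -0.14 (log2, SE 0.11, limma adjusted p = 0.738). Without wild type embryo 2 the Cox8a difference was 0.00 and that of Cox6a1 went from -0.09 to 0.06. Cox7a2l, whose protein joins complexes III and IV into supercomplexes and is not a subunit of the core enzyme, was at -0.19 (SE 0.14), and at -0.03 without that embryo.

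Complex V genes had 11 differences above 0 and 6 below among 17, with a median of 0.01. The catalytic head was represented by Atp5a1 (alpha) at 0.07 (SE 0.06) and Atp5b (beta) at 0.13 (SE 0.07). Atp5c1, the gamma subunit of the rotating stalk, gave 6193, 7116 and 6442 in wild type and 7486, 7087, 7244, 7193 and 6988 in the null. Wild type embryo 2 lay within the null range and the others below it, and the difference was 0.13 (log2, SE 0.06, limma adjusted p = 0.529). Atp5e, the epsilon subunit of the same stalk, lay the other way, with 1946, 1852 and 1739 against 1581, 1655, 1514, 1777 and 1557. Only null embryo 4 entered the wild type range of Atp5e, and the difference was -0.19 (log2, SE 0.07, limma adjusted p = 0.459).

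Atp5j, which encodes coupling factor 6 of the outer stalk, had groups that did not overlap. Its signal was 4004, 3945 and 3883 in wild type and 3624, 3555, 3537, 3640 and 3706 in the null. The means were 3944 ± 60.4 (SD, n = 3) and 3612 ± 68.1 (SD, n = 5), a difference of -0.13 (log2, SE 0.05, limma adjusted p = 0.459). Its neighbours in that stalk, Atp5pb (subunit b), Atp5h (subunit d) and Atp5o, were at 0.10 (SE 0.06), 0.04 (SE 0.06) and 0.10 (SE 0.08). Atp5g1, Atp5g2 and Atp5g3 encode the same mature subunit of the rotor ring with different import signals, and they were at -0.07, 0.01 and 0.01.

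Cycs, the electron carrier between complexes III and IV, gave 6809, 6065 and 6957 in wild type and 6857, 7268, 7648, 7161 and 7283 in the null. Only null embryo 1 entered the wild type range. The difference was 0.14 (log2, SE 0.06, unadjusted p = 0.0493, limma adjusted p = 0.571) by the brightest probe set. The other probe sets of Cycs gave -0.01 and 0.04, so the difference was not shared by them.

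More widely, 40 members had 59 further probe sets at or above the filter signal. Of these, 40 had a difference of the same sign as the brightest probe set of their gene. The median gap between them was 0.07 (log2) and 4 gaps were over 0.2, the largest being 0.69. The median size of the genotype difference, 0.06, was about that of the median gap between probe sets of 1 gene. The further probe sets ran from -0.33 to 0.60, and 9 of them, in 7 genes, lay outside the range of the brightest ones. Ndufa12, an accessory subunit of complex I, was at -0.09 by its brightest probe set and at 0.28 and 0.60 by others of mean signal 2956 and 2756, both with all null embryos above wild type. Ndufa7, another accessory subunit, was at -0.17 by the brightest and at -0.33 by one with all null embryos below wild type. A second probe set of Atp5o gave 0.46 with overlapping groups, and one of Sdhd gave 0.37 with all null embryos above wild type at a mean signal of 232.2. These genes were named after their values were seen, and which probe set better measures each gene was not tested.

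Embryos of the same genotype were compared by an F test in limma on their cultures, whose p-values measure only the spread between cultures of an embryo. In wild type, 26 of 75 members (34.7%) differed between the 3 embryos at an adjusted p under 0.05, against 50.1% of all genes tested and 57.5% of the genes with a signal of at least 1000. Among the 5 null embryos 7 members (9.33%) did, against 22.9% and 30.1%. The median SD over embryos was 0.090 (log2) for members in wild type and 0.072 in the null, compared with 0.148 and 0.126 for all genes and 0.122 and 0.102 for the bright genes. The spread of cultures within an embryo was 0.083 for members in both genotypes, close to the 0.081 and 0.080 of the bright genes. Complex IV went the other way in wild type, with a median SD over embryos of 0.193. No test was made of these contrasts.

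Calls between wild type embryos were most frequent in complex IV, though no test compared the complexes, which were taken by symbol. There 9 of 11 genes were called, compared with 9 of 34 in complex I, 0 of 4 in complex II, 3 of 8 in complex III and 5 of 17 in complex V. Set beside the 50.1% of all genes, the share was 81.8% in complex IV, 26.5% in complex I, 37.5% in complex III and 29.4% in complex V. The 9 genes were Cox4i1, Cox5a, Cox5b, Cox6a1, Cox6b1, Cox6c, Cox7a2, Cox7a2l and Cox8a. Wild type embryo 2 had the highest signal of all 8 embryos in 10 of the 11 genes. Cox7c was the exception, with its lowest wild type signal there. Over all members embryo 2 was the highest of 8 in 31 of 75 (41.3%), against 22.3% of all genes.

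Cox6a1, a small subunit of the complex, gave 10046, 13591 and 9802 in wild type and 11447, 12107, 9464, 9690 and 9263 in the null. Wild type embryo 2 stood above all the other embryos, and null embryos 2 and 1 followed it. The F test gave an adjusted p of 3.9e-05 in wild type and 0.0058 in the null. Cox7a2l gave 2238, 2850 and 1921 against 1735, 2299, 2229, 1897 and 1993, with wild type embryo 2 again highest (F test adjusted p = 0.000404 in wild type and 0.00759 in the null). The F test for Cox8a, whose values are given above, had an adjusted p of 2.8e-05 in wild type. Cox6c differed by probe set: wild type embryo 2 was 0.22 (log2) above the gene's mean by the brightest probe set and at -0.32 by the other.

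**Figure D3:**
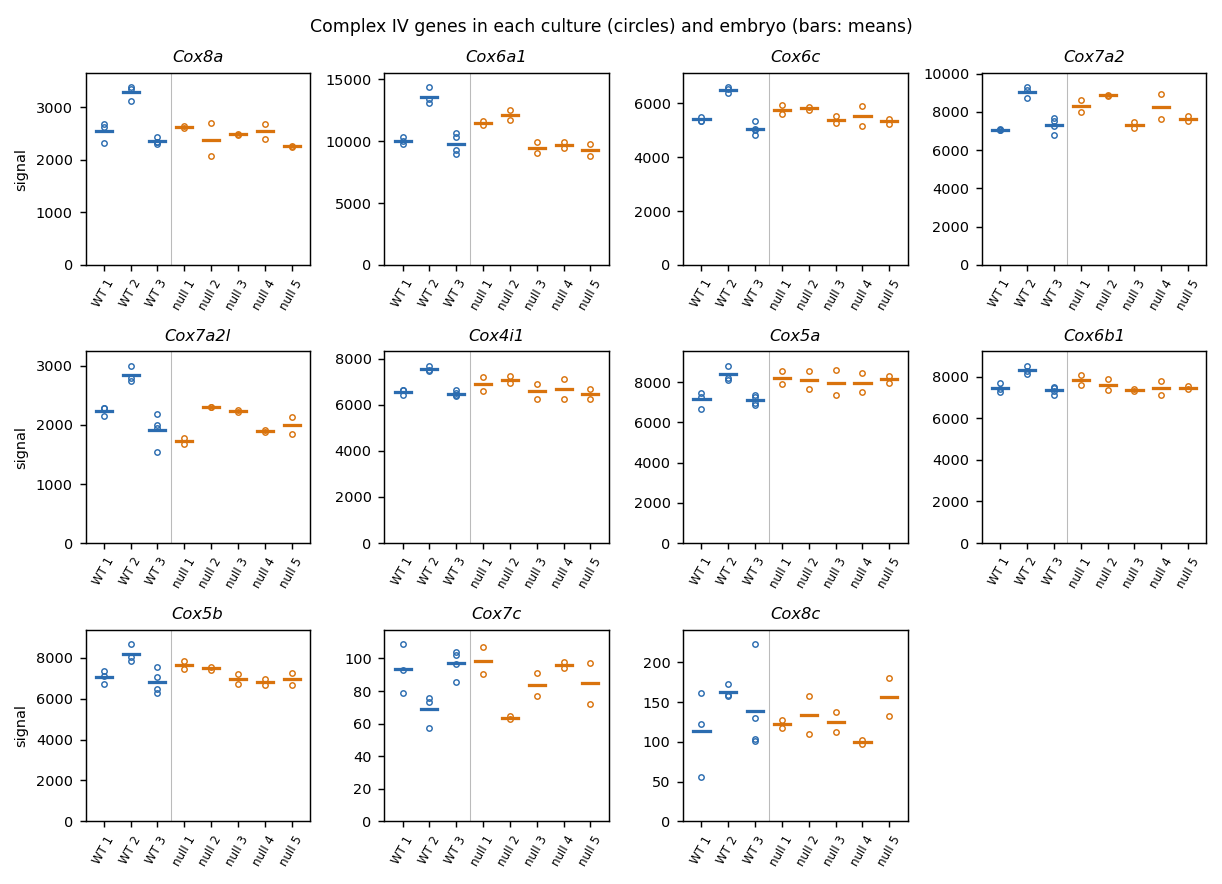
Signal (linear scale from 0) of the 11 measured complex IV genes in each culture (circles) and embryo (bars, means of cultures), wild type in blue and E2F4 null in orange. Wild type embryo 2 is the highest embryo in 10 of the 11 panels, and Cox7c runs the other way at signals under 110.

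The level of a complex in an embryo was taken as the median, over its genes, of the log2 deviation from the mean of both genotype means. For complex IV it was -0.05, 0.19 and -0.11 in wild type and 0.04, 0.06, -0.05, -0.03 and -0.06 in the null. Wild type embryo 2 was thus the highest and wild type embryo 3 the lowest of the 8, and the null embryos lay between them. With quantile normalization the level of wild type embryo 2 was 0.13 and it remained the highest, while null embryo 2 went from 0.06 to -0.01. Complex I stayed between -0.06 and 0.05 in all embryos. Complex V followed complex IV in the wild type embryos, at -0.05, 0.07 and -0.06, and not in the null, where embryo 2 was lowest at -0.06 and embryo 4 highest at 0.07. Null embryo 4 was the highest of all embryos in 16 members (21.3%, against 12.2% of all genes).

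**Figure D4:**
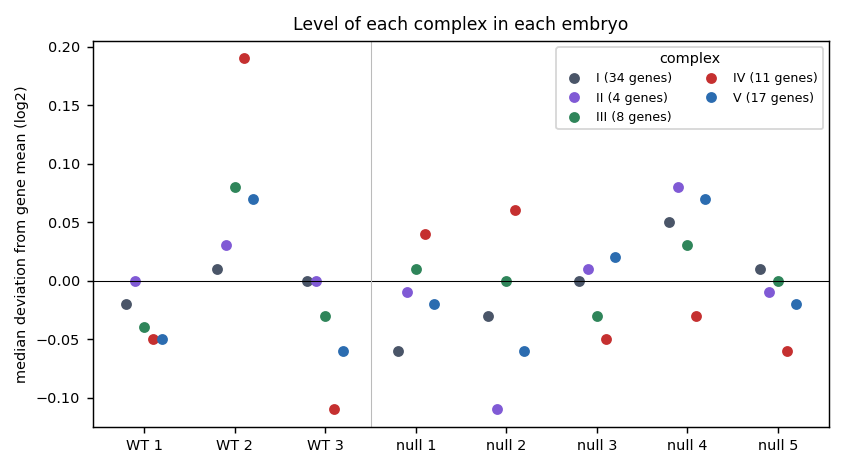
Level of each complex in each embryo, as the median deviation of its genes from their mean (log2), with colours for the 5 complexes. Complex IV (red) stands at 0.19 in wild type embryo 2 and at -0.11 in wild type embryo 3, and complex I stays between -0.06 and 0.05.

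The calls between wild type embryos rested on embryo 2. Without it, 3 members (Ndufc1, Ndufs5 and Uqcrfs1) and 0 of 11 complex IV genes differed between the other embryos, and 15.1% of all genes did. Without wild type embryo 1 there were 31 members (41.3%, against 45.6% of all genes) and 10 complex IV genes, and without wild type embryo 3 there were 26 (34.7%, against 37.4%) and 9. In the null the 7 members were Ndufa5, Ndufb6, Ndufs5, Sdha, Uqcrfs1, Cox6a1 and Cox7a2l, and without null embryo 2 there were 2 (Ndufa5 and Uqcrfs1), with 13.3% of all genes.

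Some markers of cell state and cell type were highest or lowest in wild type embryo 2 and null embryos 1 and 2. Those embryos had the highest complex IV levels, and other markers did not single them out. The genes shown are part of the marker lists and were named after their values were seen. Acta1, the skeletal muscle actin, gave 608.2, 3870 and 369.7 in wild type and 1149, 3143, 270.3, 235.1 and 211.1 in the null, so that the embryos with the highest complex IV levels also had the highest Acta1 signals. Among the other embryos Acta1 did not follow the level. Wild type embryo 3, lowest for complex IV at -0.11, was above null embryos 3, 4 and 5. The extracellular matrix gene Lum was lowest where Acta1 was highest, with 597.2, 81.82 and 2220 in wild type and 202.1, 132.9, 917.2, 1007 and 1408 in the null. Pdgfra, a receptor of mesenchymal cells, gave 852.1, 191.1 and 1200 in wild type and 197.2, 339.4, 908.0, 1110 and 1368 in the null. Dcn, also a fibroblast marker, gave 392.8, 99.28 and 408.0 in wild type and 140.8, 91.31, 223.4, 317.8 and 243.4 in the null. Like Lum and Pdgfra it was lowest in wild type embryo 2 and null embryos 1 and 2. The fibroblast markers Col1a1 and Fn1 had their highest signals in those embryos instead. Col1a1, a collagen chain, gave 13266, 13378 and 12364 in wild type and 13270, 13838, 11445, 11458 and 10292 in the null, and was highest in null embryo 2. Fn1, fibronectin, gave 14422, 16590 and 13531 against 16093, 15634, 11587, 11201 and 11413, and was highest in wild type embryo 2. The macrophage receptor gene Csf1r gave 313.8, 485.4 and 292.2 against 252.9, 436.2, 318.3, 648.7 and 384.1, and was highest in null embryo 4. Of 10 skeletal and cardiac muscle markers 3 passed the filter, and the summed signal of the list ran from 664.3 to 4494 in wild type and from 594.5 to 3860 in the null. Summed over the 10 fibroblast markers the signal ran from 88895 to 90635 in wild type and from 80012 to 92299 in the null. The defining muscle genes Myod1, Myog and Ckm were near background in every embryo. The complex IV levels meant here are those of the main setting. With quantile normalization null embryo 2 was at -0.01, below wild type embryo 1 at 0.00. The part of these genes' cells or states in the complex IV differences was not tested.

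**Figure D5:**
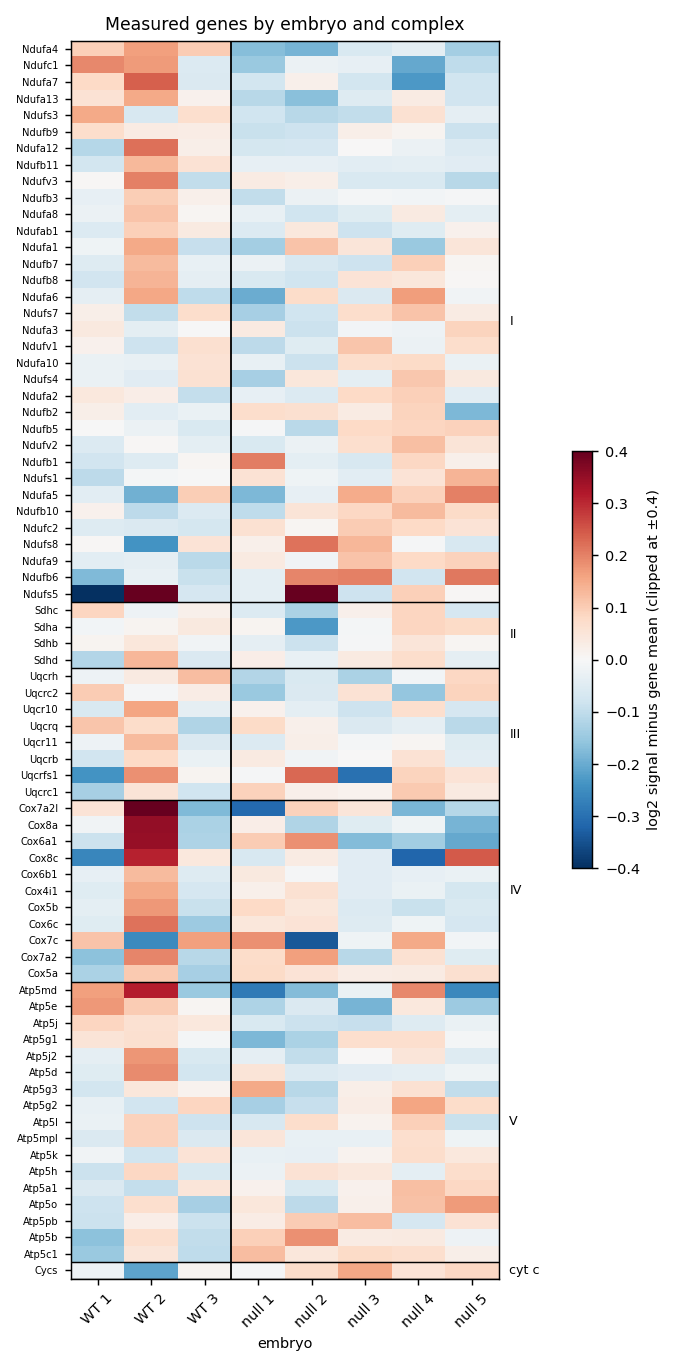
Deviation of each of the 75 measured genes (rows, by complex) in each embryo (columns) from the mean of the genotype means, in log2 and clipped at 0.4 on either side, red above and blue below. The complex IV rows are red in wild type embryo 2 except for Cox7c, and Ndufs5 and Uqcrfs1 vary within both genotypes.

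Other mitochondrial gene lists were set beside the subunits, and none of them held a gene called between genotypes (background 0.0134%). Assembly factors of the respiratory complexes had 11 differences above 0 and 26 below among 37 measured, with a median of -0.05. Of these, 2 were higher and 3 lower at an unadjusted p under 0.05. Over all genes tested 48.9% were above 0, and at that threshold 3.98% were higher and 4.75% lower. Atpif1, which encodes the inhibitor of ATP synthase, gave 2831, 2747 and 2688 in wild type and 3072, 3171, 3168, 3105 and 3103 in the null. All null embryos were higher, by 0.18 (log2, SE 0.05, limma adjusted p = 0.362). Cox18, which inserts a complex IV core subunit into the membrane, was at -0.24 (SE 0.09, limma adjusted p = 0.459) with all null embryos lower.

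Mitochondrial ribosomal proteins make up the ribosome that translates the subunits of mitochondrial DNA, and the list was taken by symbol alone (Mrpl or Mrps). A symbol does not place a product in the ribosome. The list had 53 differences above 0 and 21 below among 74, where 48.9% of all genes were above 0. Its median was 0.06, against 0.00 for all genes. At an unadjusted p under 0.05, 5 were higher and 0 lower (3.98% and 4.75% of all genes were). No test was made of the list. Mrps36 was at 0.27 (SE 0.07) and Mrps5 at 0.34 (SE 0.10), both with an adjusted p of 0.363 in limma and with all null embryos above wild type. The import chaperone Hspa9 gave 5096, 4784 and 4834 in wild type and 5950, 5499, 6221, 6757 and 5830 in the null, a difference of 0.30 (SE 0.07, limma adjusted p = 0.297) with all null embryos higher. It was 1 of 21 carriers, porins and import genes, whose median was 0.05, and the carnitine carrier gene Slc25a20 was at -0.19 (SE 0.06, limma adjusted p = 0.427) with all null embryos lower.

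Pyruvate dehydrogenase and citric acid cycle genes, which supply NADH and succinate to complexes I and II, had a median of 0.08 over 16 genes. Of these, 11 were above 0 (48.9% of all genes were). Dlat, the acetyl transferase of pyruvate dehydrogenase, was at 0.22 (SE 0.07, limma adjusted p = 0.392) and Cs, citrate synthase, at 0.11 (SE 0.05, limma adjusted p = 0.529), both with all null embryos above wild type. Among 17 genes of fatty acid beta-oxidation the median was -0.04, and Acadvl, the very long chain acyl-CoA dehydrogenase, was at -0.30 (SE 0.08, limma adjusted p = 0.363) with all null embryos lower. Etfa, a subunit of the electron transfer flavoprotein, was at -0.14 (SE 0.09, limma adjusted p = 0.696) with overlapping groups. Regulators of mitochondrial biogenesis and mitochondrial DNA had a median of 0.04 over 18 genes, with none at an unadjusted p under 0.05. Of these, Ppargc1b, a coactivator, was at 0.34 (SE 0.20) and Tfb1m, a methyltransferase of mitochondrial ribosomal RNA, at 0.23 (SE 0.16).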

How the data were processed

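The deposited tables held 1 linear signal intensity for every probe set of an array. Per the submitters' processing notes the authors used MAS5; neither its version nor a scaling target or detection call was found in the labels and files used here. The equal trimmed means show that arrays were scaled before deposit, and they were not rescaled. Of 22690 probe sets, 64 were controls, 20380 had 1 gene symbol in the platform annotation, 691 had several and 1555 were unlisted; 20351 symbols were matched by gene ID in the RefSeq table of GRCm38.p6. The array files name no genome build, and promoter coordinates are those of that table. A gene's values are those of its brightest probe set by mean signal. Signals were converted to log2(signal + 16), averaged over the cultures of each embryo and compared with limma 3.58.1 in R 4.3.3 (lmFit and eBayes with an intensity trend; tests were two-sided, and differences are E2F4 null minus wild type). Differences on the log2(signal + 16) scale understate the change of low genes. Cultures of 1 embryo were compared with limma's F test within each genotype. Of the numbers in a sample title, the first was taken to name the embryo and the last its culture, following the submitters' design text. The number of arrays and embryos limits the precision.

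The members, lists and tests were chosen with earlier results of these data known. The text names E2f4, in each complex the 4 members with the smallest p, Cycs, the 3 members with the largest F in each genotype, the tissue forms with their common partners, and in each other list the 2 genes with the smallest p. The core subunits and stalk neighbours, Atp5g1 to Atp5g3, Ndufa7, Ndufa9, Ndufa12, Ndufb6, Ndufb9 and the marker genes shown by embryo were named after their values were seen. Cox7b, Cox7b2, Ndufa4l2, Ndufa11, Ndufb4 and Ndufs6 had no probe set with 1 symbol and were not analysed here. The fits were tested on simulated data. The 21 alternatives changed the pseudocount, filter, scaling, probe set rule, model or embryos used.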

Additional observations from a re-analysis of the deposited data

Results flagged for a closer look

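In the null embryos the signals of 38 genes and levels were examined for a single embryo far from the other 4, and 1 stood out, where chance alone gives about 1 in 20. The Ndufs5 probe set gave 1622 in null embryo 2 and 1031 to 1167 in the other null embryos. The gap to the nearest embryo was 0.727 of the range, above the 95% critical value of Dixon's test for groups of 5. Groups of 3 embryos were not examined in this way.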

How the results depend on the processing

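No member was called between genotypes by limma with the main setting or any of the 21 alternatives, and 2 to 11 members had an unadjusted p under 0.05. The count over all genes, 1 in the main setting, was 80 with cultures fitted and their embryo taken as a random block, 0 with cultures 1 and 2 only, 0 with the embryo number as a replicate block (which leaves null embryos 4 and 5 out), 38 with the culture number as a replicate block, and 0 to 11 leaving out 1 embryo at a time. Deviations of same-numbered embryos correlated at 0.09, 0.64 and 0.42. These values were not set beside those of embryos with unlike numbers, so whether the numbers pair the embryos was not tested. Under the embryo number block Uqcrfs1 was at -0.01. Averaging all probe sets gave 0.06 for Cycs. Leaving out 1 embryo moved the complex III median from -0.06 to 0.02. It also turned the sign of 11 named genes, none with an unadjusted p under 0.05 in the main setting. Their ranges were -0.05 to 0.03 (Sdha), -0.08 to 0.13 (Uqcrfs1), -0.20 to 0.08 (Cox8c), -0.02 to 0.10 (Sdhd), -0.12 to 0.53 (Ndufs5), -0.01 to 0.17 (Cox7a2), -0.08 to 0.03 (Uqcr10), -0.24 to 0.00 (Cox8a), -0.18 to 0.06 (Cox6a1), -0.07 to 0.04 (Cox4i1) and -0.06 to 0.03 (Cox6b1); the cause was not tested. Ndufa4 stayed between -0.26 and -0.20, with adjusted p from 0.225 to 0.749 over the alternatives. Between null embryos, 4 of 80 members (5.0%, against 11.2% of all 12393 genes) were called without the filter on low signal, and 7 with it. In tests added after the data were seen, leaving out 1 embryo gave 1121 to 3391 genes and 3 to 31 members between wild type embryos (3722 and 26 with all), and 990 to 1729 genes and 2 to 8 members between null embryos (1704 and 7 with all).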
